A study of Rattus norvegicus with 10 samples.

Results

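The levels of 10 immediate early genes were measured in the hippocampus of rats killed 1 hour after they had been on the elevated plus maze. They are Fos, Fosb, Jun, Junb, Egr1, Egr2, Nr4a1, Dusp1, Btg2 and Arc, listed by identifier. The list follows the gene class and sets no threshold on a measured value, but it was drawn up with earlier results of these data known. All 10 identifiers were present among the 16643 genes of the deposited table. Polyadenylated RNA of the whole hippocampus was sequenced from 10 adult male rats of generation F43, 5 from the bred High Responder line (bHR) and 5 from the bred Low Responder line (bLR). These lines were bred for a high or a low locomotor response to novelty. Every rat, in both lines, received vehicle (1:1 saline and water) by daily intraperitoneal injection for 14 days, lived in standard housing and was used at postnatal day 92. Each rat spent 15 minutes on the maze, and then had a social interaction test, which gave the score used below. Only RNA with an integrity number over 8 was sequenced, per the study's design text. Both lines went through the maze, so the levels below have no untested baseline beside them and are not a measure of induction. The social interaction test also came before the tissue was taken, so the levels cannot be assigned to the maze alone. The rats are separate animals, so the tests measure the spread between animals.

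Immediate early genes are transcribed within minutes of neuronal activity, without new protein synthesis, and their RNAs are short-lived. In the hippocampus they are widely used as a readout of recent activity, of exploration and of stress. Calcium and cyclic AMP act on their promoters through the transcription factor CREB, which binds the cyclic AMP response element (CRE). The kinase ERK acts through serum response factor, which binds the CArG box. Fos, Fosb, Jun and Junb encode subunits of the AP-1 transcription factor, Egr1 and Egr2 zinc finger transcription factors, and Nr4a1 an orphan nuclear receptor. Arc encodes a synaptic protein that takes part in AMPA receptor removal. Dusp1, a phosphatase that switches off MAP kinases, and Btg2, an antiproliferative regulator of mRNA turnover, act as brakes. Dusp1 is also a known target of the glucocorticoid receptor.

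Promoter sequences from RefSeq (build GRCr8) are shown for members whose levels stood out between lines or moved together from rat to rat, because they hold letters of the CRE and CArG elements. A window of 300 bases, 250 before and 50 after the annotated start, was given for 7 of the 10 members: Fosb, Junb, Egr1, Egr2, Nr4a1, Dusp1 and Btg2. Each was searched on both strands for the CRE TGACGTCA, its core TGACG, the CArG box, the EGR site GCGGGGGCG, the AP-1 site TGANTCA and the TATA box TATAAA. A full CRE also counts as a core. Egr1 and Egr2 held the same CArG box at the same place, from base -83 to base -74, and a CRE core on the other strand that ended at base -62. In both genes 7 bases lay between these elements. Egr1 held a further CArG box from base -105 to base -96 and a further core from base -135 to base -131. The stretch is given 5′ to 3′, with both elements in capitals.

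Egr1: CCATATATGGccatgtaCGTCA

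Egr2: CCATATATGGgcagcgaCGTCA

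The Egr2 window (GRCr8, chr20:21054392-21054691, minus strand) is given in full because Egr2 had the largest estimated difference between lines. Capitals mark the CArG box and the core.

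Egr2: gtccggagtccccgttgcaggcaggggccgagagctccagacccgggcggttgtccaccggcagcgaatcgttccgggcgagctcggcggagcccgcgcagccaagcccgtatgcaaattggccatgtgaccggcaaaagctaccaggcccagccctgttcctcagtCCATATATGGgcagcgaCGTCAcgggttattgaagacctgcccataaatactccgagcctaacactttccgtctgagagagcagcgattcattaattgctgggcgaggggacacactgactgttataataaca

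The Dusp1 window (GRCr8, chr10:17184603-17184902, plus strand) is shown because Dusp1 was the 1 member with a lower mean in bHR. Capitals mark a full CRE from base -124 to base -117 and a core from base -172 to base -168.

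Dusp1: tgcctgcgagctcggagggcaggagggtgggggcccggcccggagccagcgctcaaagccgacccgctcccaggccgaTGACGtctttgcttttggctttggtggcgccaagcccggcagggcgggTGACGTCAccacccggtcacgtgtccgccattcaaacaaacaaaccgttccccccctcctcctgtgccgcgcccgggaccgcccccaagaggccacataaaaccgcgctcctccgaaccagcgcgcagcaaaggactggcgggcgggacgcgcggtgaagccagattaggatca

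Nr4a1 (GRCr8, chr7:134259888-134260187, plus strand) and Junb (GRCr8, chr19:40080876-40081175, plus strand) are shown because they were the most closely related pair from rat to rat. Capitals mark 4 cores on the other strand and 1 EGR site in Nr4a1, and 1 core and the TATA box in Junb.

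Nr4a1: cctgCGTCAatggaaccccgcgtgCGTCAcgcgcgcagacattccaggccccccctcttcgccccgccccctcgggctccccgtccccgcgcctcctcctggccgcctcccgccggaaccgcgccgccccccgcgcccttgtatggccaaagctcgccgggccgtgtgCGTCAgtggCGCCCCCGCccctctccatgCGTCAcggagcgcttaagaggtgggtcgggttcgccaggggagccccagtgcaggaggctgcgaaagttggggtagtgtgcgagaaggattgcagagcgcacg

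Junb: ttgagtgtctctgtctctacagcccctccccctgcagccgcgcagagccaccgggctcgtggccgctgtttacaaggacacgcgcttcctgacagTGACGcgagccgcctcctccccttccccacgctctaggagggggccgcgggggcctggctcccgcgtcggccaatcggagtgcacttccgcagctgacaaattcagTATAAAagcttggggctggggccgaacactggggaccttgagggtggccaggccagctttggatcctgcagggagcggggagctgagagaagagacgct

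A CRE core was present in 6 of the 7 windows (Junb, Egr1, Egr2, Nr4a1, Dusp1 and Btg2) and in 21.2% of all 33469 promoter windows of the same length. A full CRE was found in Dusp1 and Btg2 and in 1.83% of all windows, and a CArG box in Egr1 and Egr2 and in 1.64%. The EGR site was found in Nr4a1 and in 2.73% of all windows, and the letters TATAAA in Fosb and Junb and in 14.2%. In Junb they lay on the strand of the gene, from base -49 to base -44. In Fosb they lay on the other strand and far from the start, from base -180 to base -175. No window of the 7 held the AP-1 site, which 7.33% of all windows held. These are matches of letters and say nothing of binding in these rats.

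The libraries held 29106105 to 48663164 reads assigned to genes, and the members had 177 to 9521 reads in a library. At 177 reads, for Egr2 in the bLR replicate 5 library, counting alone gives an error of 7.52%. The deposited values are on the log2 scale, and levels are given as RPM, reads scaled to the effective library size, after undoing the logarithm. A level in whole tissue reflects how many cells carry an RNA and how much each holds, and these cannot be told apart. The library of bLR replicate 5 stood apart from the others of its line across the whole table. In pairs of libraries within a line, the chi-square per gene of their read counts was 131 to 191 for every pair with this library and 6.06 to 24.1 for every other pair. In bLR replicate 5 the most abundant gene took 4.06% of the reads, against 1.92 to 2.14% in the other libraries, and its effective size was 0.933 times its reads against 1.00 to 1.02.

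Early gene RNA after the maze and the social interaction test was first set side by side for the lines. By their means, 9 of the 10 genes were higher in bHR and Dusp1 was lower. Their median log2 difference, bHR minus bLR, was 0.29, where the median over all genes was -0.0072 and 47.2% of genes were higher in bHR. None of the 10 passed the test across all genes (limma, Benjamini-Hochberg adjusted p under 0.05), against 1.38% of all genes. Their limma adjusted p ran from 0.101 for Btg2 to 0.470 for Egr1. At an unadjusted limma p under 0.05 there were 7 (Fos, Jun, Egr2, Nr4a1, Dusp1, Btg2 and Arc), against 15.1% of all genes. Of these, 6 were higher in bHR, against 7.04% of all genes. With voom weights 0 passed and 8 were under 0.05 unadjusted. Most members move together from rat to rat, so these counts are not counts of independent genes.

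**Figure D1:**
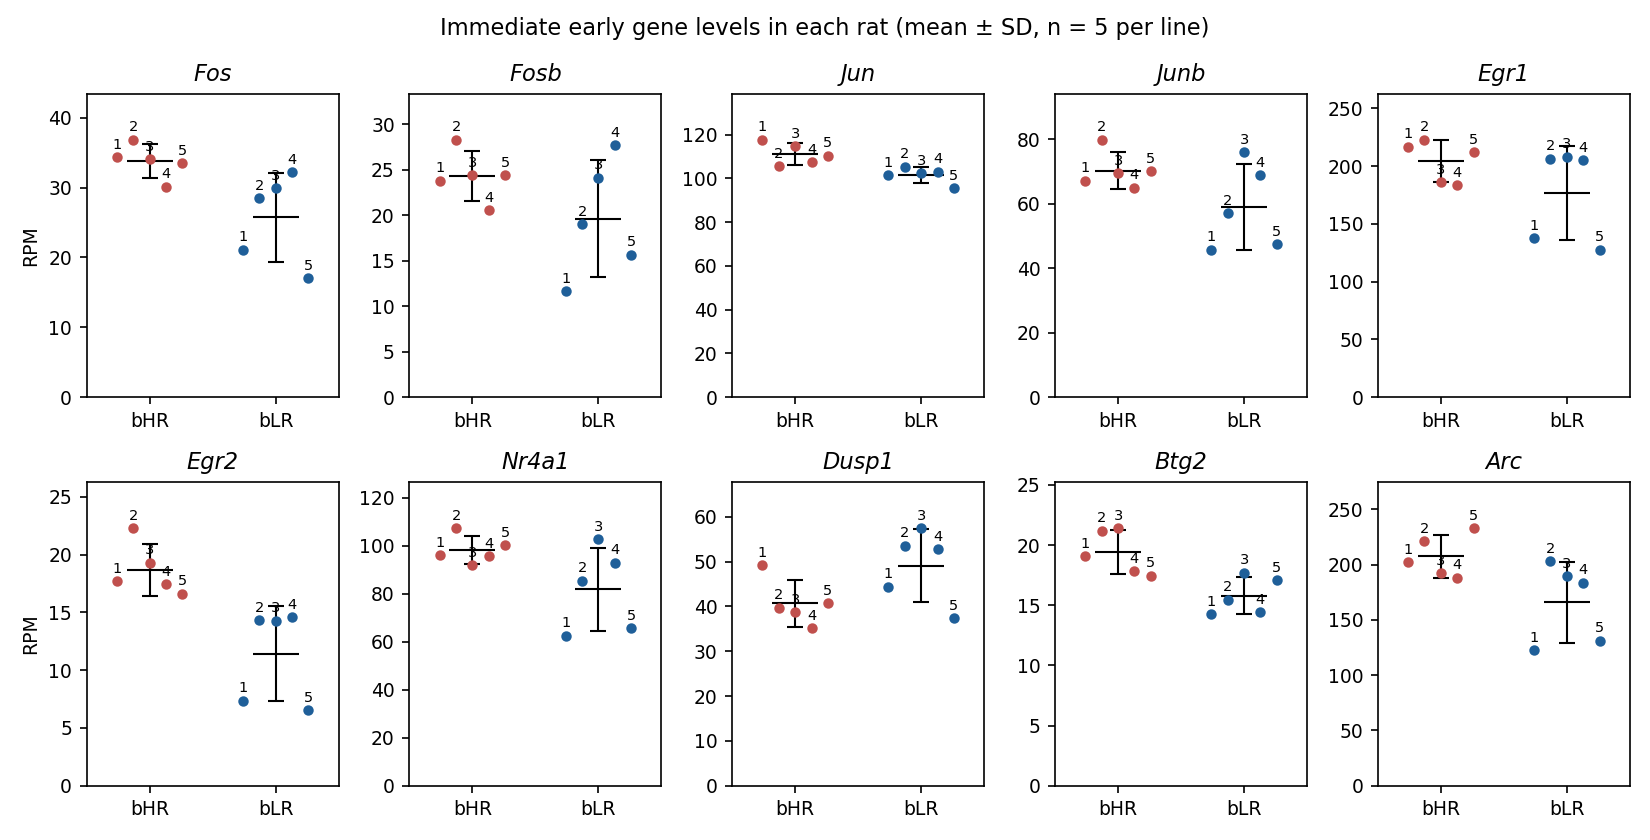
Level of each early gene in each rat, in RPM on a linear axis from 0, with bHR in red and bLR in blue. Numbers are replicates and bars give the mean ± SD of 5 rats; in most panels bLR replicates 1 and 5 lie below the other rats, and in Egr2 and Jun the lines do not overlap.

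Egr2 (ENSRNOG00000000640), which is known to rise with strong synaptic activity, had the largest difference. It stood at 17.7, 22.3, 19.3, 17.4 and 16.6 RPM in bHR replicates 1 to 5 and at 7.36, 14.3, 14.3, 14.6 and 6.51 RPM in bLR replicates 1 to 5. Every bLR rat lay below every bHR rat, and bLR replicates 1 and 5 lay far below the other bLR rats. The means were 18.7 ± 2.24 RPM (SD, n = 5) in bHR and 11.4 ± 4.10 RPM in bLR. The log2 difference was 0.79 (SE 0.23, 95% confidence interval 0.30 to 1.28), a 1.73-fold higher level in bHR, with a limma adjusted p of 0.120. Lines without overlap and higher in bHR were found in Egr2 and Jun, 2 of the 10 genes, against 1.99% of all genes.

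Egr1 (ENSRNOG00000019422), the related factor with the same CArG box, did not separate in this way. Its level was 216.9, 222.8, 185.9, 183.4 and 211.9 RPM in bHR replicates 1 to 5 and 137.5, 206.5, 208.3, 205.4 and 127.6 RPM in bLR replicates 1 to 5. The bLR replicates 2, 3 and 4 lay inside the bHR range, and only replicates 1 and 5 lay below it. The log2 difference was 0.23 (SE 0.14, 95% interval -0.07 to 0.54), with a limma adjusted p of 0.470.

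Among the AP-1 genes, Fos (ENSRNOG00000008015) stood at 34.3, 36.9, 34.1, 30.2 and 33.5 RPM in bHR and at 21.1, 28.5, 29.9, 32.2 and 17.0 RPM in bLR, in replicate order. The lines overlapped through bLR replicate 4 and bHR replicate 4. The log2 difference was 0.43 (SE 0.15, limma adjusted p = 0.199), or 1.35-fold. Fosb (ENSRNOG00000046667), known for a long-lived truncated product, ran from 20.6 to 28.3 RPM in bHR and from 11.6 to 27.7 RPM in bLR, a log2 difference of 0.37 (SE 0.20, limma adjusted p = 0.412). Junb (ENSRNOG00000042838), a partner of Fos proteins, ran from 64.9 to 79.8 RPM in bHR and from 45.8 to 76.1 RPM in bLR, a log2 difference of 0.28 (SE 0.13, limma adjusted p = 0.335). In both genes the ranges overlapped widely and only bLR replicates 1, 2 and 5 were below all bHR rats.

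Jun (ENSRNOG00000026293), which pairs with Fos proteins or with itself, had a small difference with little spread. It stood at 117.6, 105.6, 114.8, 107.5 and 110.3 RPM in bHR and at 101.4, 105.3, 102.4, 103.1 and 95.4 RPM in bLR, in replicate order. The highest bLR rat lay just below the lowest bHR rat. The log2 difference was 0.13 (SE 0.04, 95% interval 0.05 to 0.21), or 1.09-fold, with a limma adjusted p of 0.129.

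Nr4a1 (ENSRNOG00000007607) ran from 91.9 to 107.2 RPM in bHR and from 62.5 to 102.6 RPM in bLR, a log2 difference of 0.29 (SE 0.12, limma adjusted p = 0.290). Arc (ENSRNOG00000043465), whose RNA travels to active synapses, stood at 202.3, 221.4, 192.1, 188.2 and 232.9 RPM in bHR and at 122.5, 203.0, 189.7, 183.7 and 131.2 RPM in bLR, in replicate order. The bLR replicates 2 and 3 lay inside the bHR range. Its log2 difference was 0.35 (SE 0.13, 95% interval 0.05 to 0.64), with a limma adjusted p of 0.246.

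The brakes, Dusp1 and Btg2, had differences of opposite sign. Dusp1 (ENSRNOG00000003977) stood at 49.3, 39.7, 38.7, 35.2 and 40.8 RPM in bHR and at 44.4, 53.6, 57.4, 52.8 and 37.4 RPM in bLR, in replicate order. The bLR replicates 2, 3 and 4 were above every bHR rat, while replicates 1 and 5 lay inside the bHR range. The log2 difference was -0.26 (SE 0.12, 95% interval -0.52 to -0.01), 0.834 times the bLR level, with a limma adjusted p of 0.315. Btg2 (ENSRNOG00000003300) stood at 19.1, 21.2, 21.4, 17.9 and 17.5 RPM in bHR and at 14.3, 15.5, 17.7, 14.4 and 17.1 RPM in bLR, in replicate order. Only bLR replicate 3 reached into the bHR range. Its log2 difference was 0.30 (SE 0.08, 95% interval 0.12 to 0.47), or 1.23-fold, and its limma adjusted p of 0.101 was the lowest of the 10.

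**Figure D2:**
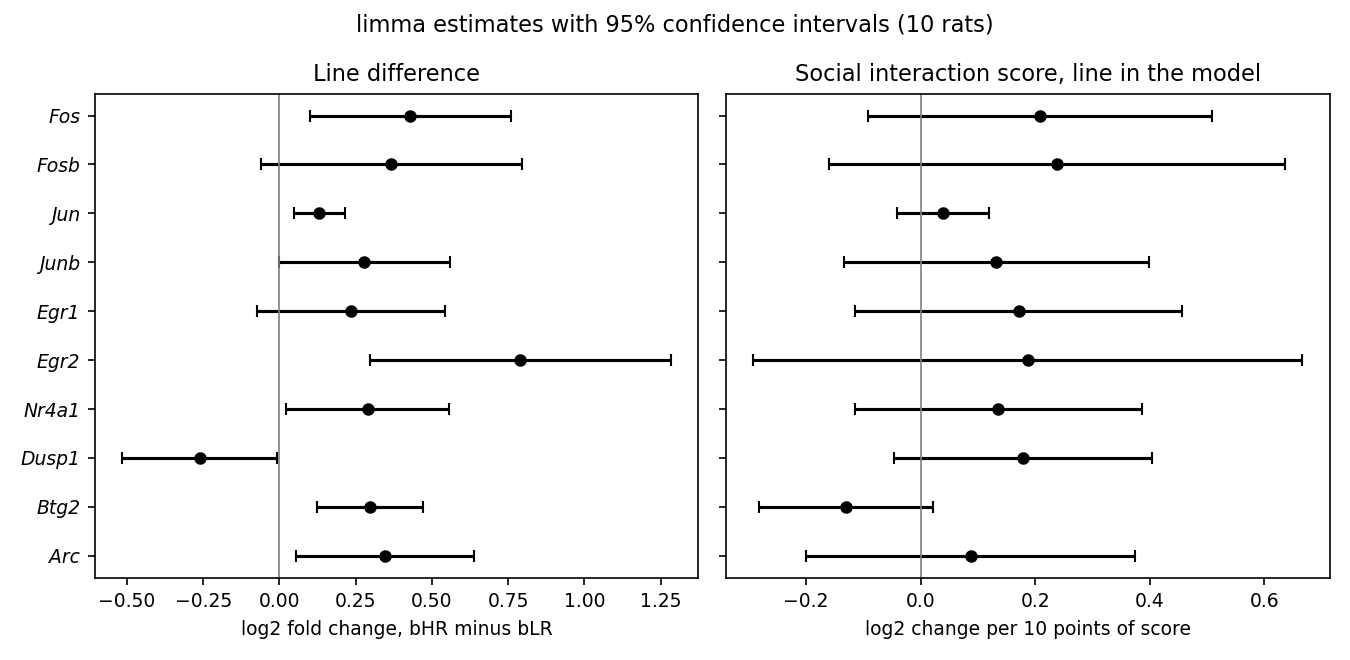
limma estimates (points) with 95% confidence intervals (bars) for the 10 genes over 10 rats: left, the log2 difference between lines; right, the log2 change per 10 points of social interaction score with the line in the model. Dusp1 is the 1 gene to the left of 0 for the line, at -0.26, and every interval for the score includes 0.

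The line estimates of Fos, Fosb, Junb, Egr1, Egr2, Nr4a1 and Arc leaned on 2 rats. In 8 of the 10 genes, bLR replicates 1 and 5 were the lowest pair of all 10 rats, which held for 2.51% of all genes. Dusp1 and Btg2 were the exceptions. Leaving out bLR replicate 5 lowered the log2 difference of Fos from 0.43 to 0.29 and that of Egr1 from 0.23 to 0.12, while Egr2 fell to 0.61 and Dusp1 moved to -0.36. Leaving out bLR replicate 1 gave 0.37 for Fos, 0.15 for Egr1, 0.65 for Egr2 and 0.19 for Fosb. Dusp1 was at -0.29 without that rat, in place of -0.26. Jun stayed at 0.13 without bLR replicate 1 and was at 0.11 without bLR replicate 5. Btg2 was at 0.26 without bLR replicate 1 and at 0.33 without bLR replicate 5, in place of 0.30. Without bLR replicate 1, and likewise without bLR replicate 5, 5 of the 10 genes in place of 7 were under an unadjusted limma p of 0.05. This drop was not particular to these rats. The count was 4 without bHR replicate 2 or 5, and 5 without bHR replicate 4. It was 6 without bHR replicate 1 or 3 or bLR replicate 2, and 8 without bLR replicate 3 or 4. The depth of both libraries lay inside the range of the others, with 36559242 reads for replicate 1 and 29211331 for replicate 5. Replicate 5 was close to the lowest depth, 29106105. Its effective size, 27263949, lay below that of every other library (29246457 to 49570066). Replicate 1 did not stand apart as replicate 5 did: its chi-square per gene was 14.5 to 19.2 against bLR replicates 2, 3 and 4, and 2.14% of the reads fell on its top gene. The part of depth or composition in the low early gene levels was not tested.

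The spread among rats was larger in bLR than in bHR for most of these genes, a description with no test. The SD of the log2 values was larger in bLR in 9 of the 10 genes, Jun being the exception, and in 64.3% of all genes. The ratio of the SD in bLR to that in bHR had a median of 2.78 over the 10 genes and 1.24 over all genes. It was 3.73 for Fos, 3.71 for Nr4a1 and 3.50 for Egr2, but 1.03 for Btg2 and 0.833 for Jun. Much of this came from the low bLR replicates 1 and 5. The bLR replicates 2, 3 and 4 lay close together in Egr1 (205.4 to 208.3 RPM) and Egr2 (14.3 to 14.6 RPM). In Fosb they were themselves spread, from 19.0 to 27.7 RPM. The larger spread is thus not shown to be a trait of the bLR line. Between the lowest and the highest of the 10 rats, Egr2 differed 3.42-fold, Fosb 2.43-fold and Fos 2.17-fold. Set against the genes within 0.5 log2 units of its own mean level, the within-line spread of Egr1 lay at the 98.7th percentile, that of Arc at the 98.5th and that of Egr2 at the 98.2nd. Jun, at the 42.8th, and Btg2, at the 75.1st, varied like other genes of their level. The other members lay between the 96.2nd percentile, for Dusp1, and the 98.4th, for Fosb. These percentiles pool both lines. In bHR alone the SD lay at the 96.7th percentile for Dusp1, the 95.6th for Arc and the 95.3rd for Egr1. It lay lower for Fosb (90.4th), Junb (89.6th), Egr2 (85.5th), Nr4a1 (80.6th) and Fos (78.3rd).

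The second comparison asked whether the early genes rose and fell together from rat to rat once the line was taken away. Values were centred within each line, and the correlation of each of the 45 pairs was tested over 10 rats by an exact two-sided permutation test within lines, with 14400 arrangements and Benjamini-Hochberg adjustment over the 45 pairs. The median Pearson's r of the 45 pairs was 0.791, with a range from -0.149 to 0.964, where the median over all pairs of the 16643 genes was -0.001. Values of r above 0.8 were found in 48.9% of the 45 pairs and in 0.878% of all gene pairs. The adjusted p was under 0.05 in 4 pairs with Pearson's r and in 10 with Spearman's rho.

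Junb and Nr4a1 were the most closely related (r = 0.964, rho = 0.903, exact permutation p = 0.00125, adjusted 0.0391), and r was 0.921 without bLR replicates 1 and 3, the rats farthest out in Junb. Fos and Egr2 followed (r = 0.953, rho = 0.964, exact permutation p = 0.00278, adjusted 0.0391), with r = 0.934 without bLR replicates 4 and 5. Fos and Egr1 gave r = 0.944 and rho = 0.952 (exact permutation p = 0.00319, adjusted 0.0391), with r = 0.937 without the same rats. Junb and Nr4a1 thus kept bLR replicate 5, and both of these Fos pairs kept bLR replicate 1. Each of these rats was among the lowest in the genes of its pair. These r values therefore do not show how the pairs stood with both low rats left out. In bLR replicates 2, 3 and 4, Fos ran from 28.5 to 32.2 RPM. Egr1 hardly moved in these rats, at 205.4 to 208.3 RPM, nor did Egr2, at 14.3 to 14.6 RPM. Junb (57.0, 76.1 and 68.9 RPM) and Nr4a1 (85.3, 102.6 and 93.0 RPM) kept the same order there. Egr1 and Dusp1 gave r = 0.865 and rho = 0.842 (exact permutation p = 0.00347, adjusted 0.0391), with r = 0.657 without bLR replicates 1 and 5. Thus Dusp1 was lower in bHR by its mean while it rose and fell with Egr1 inside the lines. In each of the 4 pairs the exact p of rho, adjusted over the 45 pairs, was 0.0441.

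**Figure D3:**
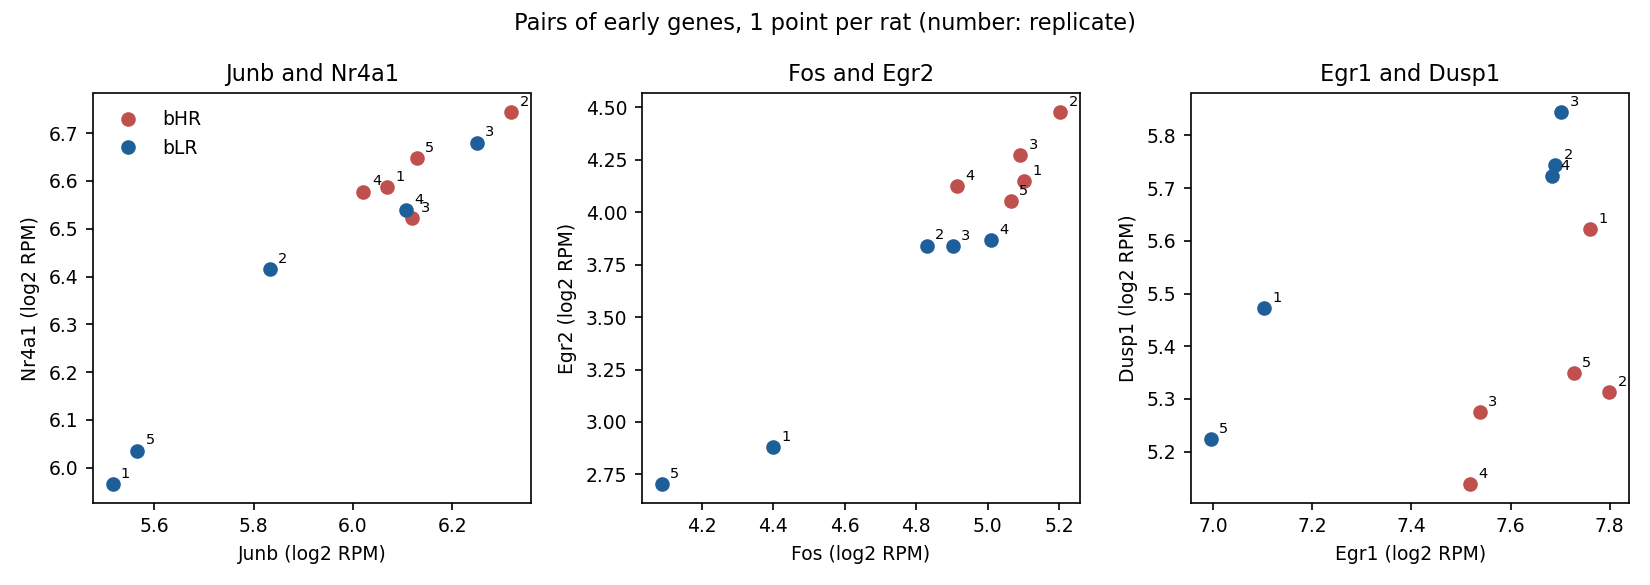
Junb against Nr4a1, Fos against Egr2 and Egr1 against Dusp1, in log2 RPM, 1 point per rat (bHR red, bLR blue, numbers are replicates). In the first panel the rats of both lines follow 1 course, and in the third the bLR rats have more Dusp1 for their Egr1 than the bHR rats.

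Fos, Fosb, Junb, Egr1, Egr2, Nr4a1 and Arc formed a block, picked after the values were seen and described without a test of its own. Their 21 pairs had r from 0.791 to 0.964, with a median of 0.872. Dusp1 joined them with r from 0.589 (Fosb) to 0.865 (Egr1). Jun stood outside, with r from 0.191 (Junb) to 0.541 (Fos) against the block, and was closest to Dusp1 (r = 0.766, rho = 0.733, exact permutation p = 0.0123, adjusted 0.0553). For Btg2 no pair passed, with r from -0.149 (Jun) to 0.328 (Junb) and an adjusted p of at least 0.509 by the exact permutation test.

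**Figure D4:**
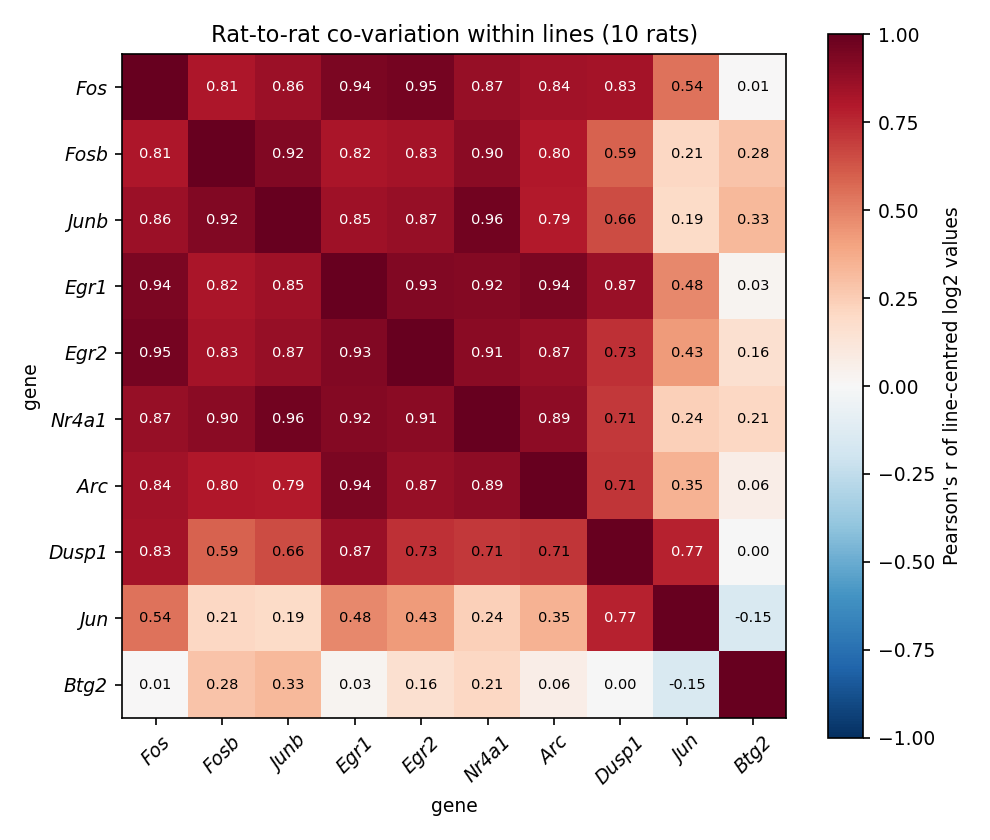
Pearson's r of the line-centred log2 values for each pair of genes over 10 rats, on a colour scale from -1 to 1. The 7 genes at the top left form a block with r of at least 0.791, Dusp1 joins it more loosely, and Jun and Btg2 stand outside.

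Part of this co-variation also came from bLR replicates 1 and 5. With both left out, the median r over the other 8 rats was 0.304 for the 45 pairs and 0.508 for the 21. Some pairs did not hold without them: Egr1 and Egr2 went from r = 0.928 to 0.282, and Egr2 and Arc from 0.869 to 0.056. Over the same 8 rats, r of the 21 pairs ran from 0.056 to 0.919, so some pairs remained close. Fos and Fosb had r = 0.810 over all rats and 0.976 without bLR replicates 4 and 5. That set of rats kept bLR replicate 1, the lowest rat in Fosb, so it is not the same comparison. At the high end of bHR, replicate 2 was the highest bHR rat in 6 of the 10 genes, against 21.6% of all genes. At the low end, replicate 4 was the lowest bHR rat in 6 of 10, against 17.4%.

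Each gene was also set against the mean of the other 9, with every gene scaled to the same within-line spread. Egr1 had r = 0.951 with that mean and ranked 5 among 16634 genes, Egr2 (r = 0.934) ranked 10, Fos (r = 0.931) 12 and Nr4a1 (r = 0.923) 13. Junb ranked 33, Arc 83, Fosb 93 and Dusp1 232, whereas Jun ranked 2955 and Btg2 6564. These ranks describe the 10 rats and carry no test. They lean on bLR replicates 1 and 5. In these rats the scaled mean of all 10 members was -1.15 and -1.21 from the line mean. In the other rats it ran from -0.57 to 1.05. The genes below were matched to the same mean. Outside the 10 members, 30 of 14911 genes with a mean log2 value of at least 0 followed the mean of the members with r above 0.9. The most alike was ENSRNOG00000059081 (r = 0.981), from 13.0 RPM in bLR replicate 1 to 21.9 RPM in bLR replicate 3, followed by ENSRNOG00000008709 (r = 0.964), from 287.9 RPM in bHR replicate 4 to 369.7 RPM in bLR replicate 3. Like Dusp1, both had lower means in bHR, with log2 differences of -0.14 (SE 0.13, limma adjusted p = 0.683) and -0.12 (SE 0.07, limma adjusted p = 0.428). Both were lower in bLR replicates 1 and 5 than in the other bLR rats. The first stood at 13.0 and 13.9 RPM in them, against 19.2 to 21.9 RPM.

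Ratios between the early genes in the same rat do not depend on how a library is scaled, and the ratio to Egr1 was examined after the values were seen, without a test. A ratio of RPM is not a ratio of molecules, since the genes differ in length, but it can be compared between rats. Egr2 amounted to 7.84 to 10.4% of Egr1 in bHR and 5.10 to 7.10% in bLR. Fos amounted to 15.8 to 18.3% in bHR and 13.3 to 15.7% in bLR. For Dusp1 the order was turned, with 17.8 to 22.7% in bHR and 25.7 to 32.3% in bLR. The lines did not overlap in these 3 ratios, though for Fos bHR began just above the highest bLR rat, and they overlapped in the other 6. Where the lines do not overlap, bLR replicates 1 and 5 necessarily fall on the side of their line. In these rats Dusp1 was at 32.3% and 29.3% of Egr1, and Egr2 at 5.35% and 5.10%. Over all other genes, the ratio to Egr1 separated the lines with bHR higher in 0.0961% and with bHR lower in 2.32%. Egr1 itself was low in bLR replicates 1 and 5, which raises the ratio there for any gene that does not follow Egr1. Few such genes could then separate with bHR higher. These shares are therefore not a like background for genes that vary together with Egr1, and do not show how rare the Egr2 and Fos ratios are.

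**Figure D5:**
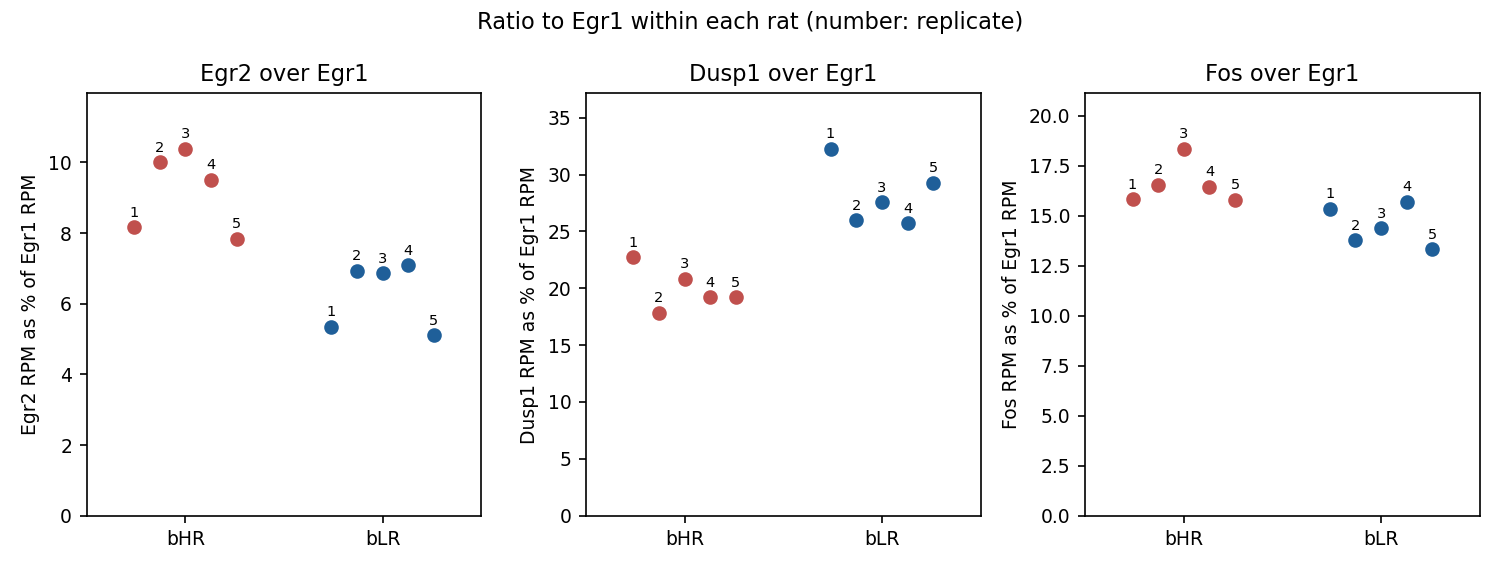
RPM of Egr2, Dusp1 and Fos as a percentage of Egr1 RPM in the same rat, with bHR in red, bLR in blue and replicates numbered, on linear axes from 0. In all 3 panels the lines do not overlap, and for Dusp1 the bLR rats are the higher ones, from 25.7 to 32.3%.

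The third comparison asked whether early gene levels followed the social interaction score of the rat, which the labels give without a unit. With the line in the model, 9 of the 10 slopes were above 0, against 49.8% of all genes. These slopes are not independent, since most members move together from rat to rat. None passed (limma, Benjamini-Hochberg adjusted p from 0.738 to 0.914), against 0% of all genes, and none was under an unadjusted p of 0.05, against 7.11% of all genes. With voom weights 0 passed as well and 0 were under 0.05 unadjusted. Fosb had the steepest slope, 0.24 on the log2 scale per 10 points (SE 0.18, 95% interval -0.16 to 0.64), and Btg2 was the 1 gene that sloped down, at -0.13 (SE 0.07, 95% interval -0.28 to 0.02). Egr2 was at 0.19 (95% interval -0.29 to 0.67), which holds slopes of either sign.

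Within lines, the correlation of level and score over 10 rats ran from r = -0.555 for Btg2 (rho = -0.430, exact permutation p = 0.118) to r = 0.483 for Dusp1 (rho = 0.430, exact permutation p = 0.217), in 10 relations. Without the 2 rats farthest out in score, bLR replicates 4 and 5, r turned from 0.431 to -0.236 for Fos and from 0.257 to -0.364 for Egr2. It also fell below 0 for Fosb, Junb, Egr1, Nr4a1 and Arc, so the relations of these genes rested on those rats. Btg2 (-0.414), Dusp1 (0.379) and Jun (0.284) kept their sign. The rats low in early genes were not the only ones low in score: bLR replicate 1 scored 12.33 and replicate 5 scored 7.33, but replicate 2, at 8, had Egr1 at 206.5 RPM, inside the bHR range. The score itself differed between the lines, with 16.67 to 28.33 in bHR and 7.33 to 24 in bLR. All bLR rats but replicate 4 scored below every bHR rat. With the score in the model of the line, the log2 difference of Fos was 0.24 (SE 0.19) in place of 0.43 (SE 0.15), that of Egr1 0.08 and that of Egr2 0.62. Whether the score accounts for the line difference was not tested. In the model with the score 2 genes, Dusp1 (-0.42) and Btg2 (0.41), were under an unadjusted limma p of 0.05 in place of 7.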

How the data were processed

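Per the series' design text, which the labels' protocols repeat in part, libraries were made with a stranded mRNA kit but sequencing is described as non-stranded, with single reads of 50 bases. No source used here gives a strand setting for featureCounts, so antisense partners may share reads. Subread placed the reads on Rnor_6.0, and genes were counted on Ensembl release 85. The authors kept a gene if 5 or more samples reached 16 counts, and deposited voom log2 values (limma, R 3.2.2 per the submitters' processing notes). All 10 members met that filter here. Undoing the authors' log2 step gave back whole read counts (100% within 0.01 reads).

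Symbols of the members come with the identifier list and not from the deposited table. Of its 16643 identifiers, 0 matched the RefSeq table (GRCr8), so other early genes and cell type markers listed by symbol were not analysed here. Promoters were matched by symbol.

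The test between lines was limma 3.58.1 under R 4.3.3 (intensity trend, Benjamini-Hochberg over all 16643 genes at 0.05), and the score was fitted in a model with the line. The scripts were tested on simulated data. Correlations and permutation tests used Python 3.11.15 with scipy 1.17.1, numpy 2.4.6 and pandas 2.3.3, and figures matplotlib 3.10.9. All members were named, and the 2 most alike other identifiers. Alternatives were other variance priors, normalizations, weights, prior counts, thresholds, a covariate and a block, and leaving out each library. All 20 pairs of libraries within a line differed beyond sampling noise (chi-square per gene of at least 6.06). The members, gene lists and tests were chosen with earlier results of these data known.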

Additional observations from a re-analysis of the deposited data

How the results depend on the processing

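In all 21 alternatives for the line and all 20 for the score, 0 of the 10 genes passed, and each line difference kept its direction. The limma adjusted p of the line difference ranged from 0.071 to 0.215 for Btg2, 0.088 to 0.446 for Egr2 and 0.085 to 0.486 for Jun. Without 1 library, 4 to 8 genes were under an unadjusted limma p of 0.05 for the line. Over all genes, 152 passed without the intensity trend, 503 at 0.10, 46 with the score as a covariate and 108 to 216 without 1 library, in place of 230.

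Same replicate numbers did not pair the rats (r from -0.146 to 0.101, and 0 of 5 bHR libraries closest to their own number). With the replicate block 108 genes passed for the line and 1 for the score. No member passed in either, while 8 members were under an unadjusted p of 0.05 for the score in place of 0.

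The median r of the 45 pairs was 0.646 to 0.829 without 1 library, lowest without bLR replicate 5, and 0.304 over 8 rats without bLR replicates 1 and 5, chosen after seeing the data. The cause was not tested. Score slopes without 1 library ran from -0.079 to 0.34 for Fosb and -0.06 to 0.32 for Egr2, and r with the score from -0.108 to 0.518 and -0.061 to 0.452. Without centring, that r was -0.059 for Dusp1 and 0.230 for Btg2.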
